A study of Homo sapiens with 8 samples.

Results

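Laminin chains were followed across 8 RNA-seq libraries of RMG1, an established human line of ovarian clear cell carcinoma. The set held 8 genes, LAMA1, LAMA3, LAMA4, LAMA5, LAMB1, LAMB2, LAMB3 and LAMC1, out of 57736 Ensembl gene IDs in the count table. All 8 were matched by symbol and all 8 passed the filter on low counts. They were chosen by name after their counts per library and their fold changes in the knockout and in the knockdown were known. Levels and effects of the members are therefore given as descriptions, without a test, and no count over the members is used as support. The list states no threshold. LAMA2, LAMB4 and LAMC3, also chains of the family, were treated as a separate list.

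Total RNA was compared in 4 groups of 2 libraries, all from RMG1. The wild-type cells had ARID1A and CAPH2 intact, and the knockout cells had ARID1A removed by CRISPR and are labelled as having CAPH2 intact. The shRNA control cells (shControl) carried a control hairpin with both genes intact, and the knockdown cells (shCAPH2) carried a hairpin against CAPH2 with ARID1A intact. ARID1A belongs to SWI/SNF, a remodeller of chromatin, and CAPH2, gene NCAPH2, to condensin II. The labels leave unsaid whether the knockout is a clone or a pool. They name no separate cultures for the paired libraries either, and the spread behind each error and p-value may then be technical.

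Laminins are the main adhesive proteins of the basement membrane, the sheet of matrix on which epithelial cells sit. Each is a heterotrimer of an alpha, a beta and a gamma chain, wound together in a long coiled coil and named by the numbers of its chains. LAMA1, LAMA4 and LAMA5 pair with LAMB1 or LAMB2 and with LAMC1, giving laminin-111, laminin-411, laminin-511 and their beta-2 forms. LAMA3 and LAMB3 are chains of laminin-332, the anchor of epithelia at hemidesmosomes. The alpha chain carries the globular domains that bind integrins and dystroglycan. Laminins of the LAMC1 type also bind nidogens, which bridge to the network of type IV collagen.

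The 250 bases before the transcription start are shown for the 4 chains on which the results turn: LAMA4 and LAMB1, which were higher in knockout than in wild-type cells, LAMB3, which was lower in both perturbed groups than in its reference, and LAMA3, which was lower in the knockdown and not in the knockout against wild type. The sequences are from RefSeq on GRCh38.p14, 5′ to 3′ on the gene's strand, and 7 of the 8 members had an entry. They lie at chr6:112254568-112254817 (minus strand, LAMA4), chr7:108003162-108003411 (minus strand, LAMB1), chr1:209652426-209652675 (minus strand, LAMB3) and chr18:23872770-23873019 (plus strand, LAMA3). LAMB3 has 3 listed starts, of which the nearest to the gene's annotated start is shown. The LAMA3 start is that of a short form, 183577 bases from the gene's first annotated start. Capitals mark matches, on either strand, to any of the motifs searched. The AP-1 site was TGACTCA, with its reverse complement. The GC box was searched as GGGCGG on both strands. The E-box was searched as CAGGTG, and the TATA box as TATAAA.
LAMA4: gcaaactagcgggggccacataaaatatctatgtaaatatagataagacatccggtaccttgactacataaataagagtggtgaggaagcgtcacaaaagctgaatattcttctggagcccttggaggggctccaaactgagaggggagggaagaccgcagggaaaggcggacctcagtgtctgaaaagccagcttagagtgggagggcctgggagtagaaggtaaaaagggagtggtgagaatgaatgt
LAMB1: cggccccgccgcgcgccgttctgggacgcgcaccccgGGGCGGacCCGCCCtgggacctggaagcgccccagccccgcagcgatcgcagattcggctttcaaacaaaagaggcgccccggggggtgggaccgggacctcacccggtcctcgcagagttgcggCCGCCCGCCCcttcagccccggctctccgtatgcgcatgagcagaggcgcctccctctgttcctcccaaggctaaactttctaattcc
LAMB3: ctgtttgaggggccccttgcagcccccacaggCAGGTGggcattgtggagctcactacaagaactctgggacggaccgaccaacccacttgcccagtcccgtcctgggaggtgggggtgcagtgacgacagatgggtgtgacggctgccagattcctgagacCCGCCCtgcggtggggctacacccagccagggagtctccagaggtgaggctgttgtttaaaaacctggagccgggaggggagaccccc
LAMA3: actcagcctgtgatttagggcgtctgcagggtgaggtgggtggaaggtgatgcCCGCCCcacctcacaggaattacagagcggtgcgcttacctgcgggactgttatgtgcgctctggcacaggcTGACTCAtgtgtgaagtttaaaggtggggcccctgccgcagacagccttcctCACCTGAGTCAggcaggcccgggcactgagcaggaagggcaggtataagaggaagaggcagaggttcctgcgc

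The LAMA3 window held 2 AP-1 matches, 125 and 69 bases before the start, and the nearer overlapped an E-box match. An AP-1 match was found in 4.20% of the 35116 listed promoters of the same length. Among the members it was found once more, before the third LAMB3 start, which is not shown. The LAMA4 window held none of the motifs searched and had the lowest GC content of the members, 48.4%, beside a median of 58.0% over all listed promoters. The LAMB1 window was 70.4% GC with 4 GC-box matches, and LAMB3 had 1 GC-box and 1 E-box match. Over all promoters, 42.6% held a GC box, 17.5% an E-box and 10.7% a TATA box. The LAMA5 and LAMC1 windows, not shown, were richest in GC, at 82.8% and 79.6%, with 5 and 3 GC-box matches. A match is a string of letters in this window and not a measured binding site.

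Libraries held 24559547 to 37378691 counts, and 1 count was worth 0.0261 to 0.0413 CPM, the count per 1000000 counts of the library after scaling by trimmed means of M values (TMM). No libraries of a group held identical values. ARID1A itself was at 8.80 and 12.1 CPM in wild-type libraries and at 6.66 and 5.62 CPM in knockout libraries. The transcript was thus lower and not absent in the libraries labelled knockout (log2 fold change −0.77, SE 0.16, edgeR adjusted p = 0.00274). NCAPH2 was at 24.0 and 25.8 CPM in shRNA control and at 8.99 and 8.74 CPM in knockdown libraries (−1.49, SE 0.10, edgeR adjusted p = 1.84e-06). NCAPH2 was also lower in the knockout, at 20.97 and 23.9 CPM against 26.8 and 29.99 CPM in wild type (−0.34, SE 0.09, edgeR adjusted p = 0.0144). That call was lost without wild-type library 2 (adjusted p = 0.0961) or knockout library 1 (adjusted p = 0.133). Of 8 matched markers of epithelium and clear cell carcinoma, all were detected, with summed levels of 2160 to 2350 CPM across libraries. In the knockout 2 of the 8, CDH1 and EPCAM, were called higher than in wild type and 4, KRT7, KRT8, MUC1 and NAPSA, lower. That was 75% of these markers, beside 34.5% of all genes tested.

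LAMC1 had the highest level of the members in every group, and the chains after it differed between groups. Levels of different chains were set side by side only per kilobase of exon length. On that scale the order in wild-type cells was LAMC1 (148 ± 0.0460 CPM per kb, mean ± SD, n = 2), LAMB3 (50.4 ± 2.12), LAMA1 (34.1 ± 2.13), LAMB1 (11.4 ± 0.737), LAMA3 (8.13 ± 0.302), LAMB2 (5.30 ± 0.384), LAMA5 (1.37 ± 0.0769) and LAMA4 (0.00179 ± 0.00252). All neighbours in this order lay further apart than their SDs. In shRNA control cells LAMB3 (58.3 ± 2.71) and LAMA1 (42.9 ± 0.954) again came after LAMC1, with LAMA3 (15.5 ± 0.404) above LAMB1 (13.7 ± 0.104). In the knockout LAMB1 (23.5 ± 0.0371) and LAMA1 (22.2 ± 1.25), which lay about an SD apart, came before LAMB3 (16.9 ± 0.101). In the knockdown the order after LAMC1 was LAMA1 (38.6 ± 0.732), LAMB3 (31.2 ± 2.21) and LAMB1 (25.5 ± 0.510). Some of these orders turned with the longest transcript as length. LAMB1 (36.0 ± 0.720) then stood above LAMB3 (34.0 ± 2.41) in the knockdown. LAMA1 (33.9 ± 1.91) stood above LAMB1 (33.2 ± 0.0523) in the knockout, and LAMA1 (65.7 ± 1.46) above LAMB3 (63.5 ± 2.95) in the shRNA control. Each pair lay closer than its larger SD. LAMA3 is transcribed as a long and a short form, and gene-level counts divided by all exons cannot separate them. LAMC1 alone, at 148 CPM per kb in both wild-type libraries, exceeded the summed beta chains, 66.0 and 68.4, which exceeded the summed alpha chains, 42.0 and 45.5. The same order held in the other 6 libraries on this length. With the longest transcript as length, the summed alpha chains exceeded the summed beta chains in shRNA control library 1, at 90.3 and 89.2.

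**Figure D1:**
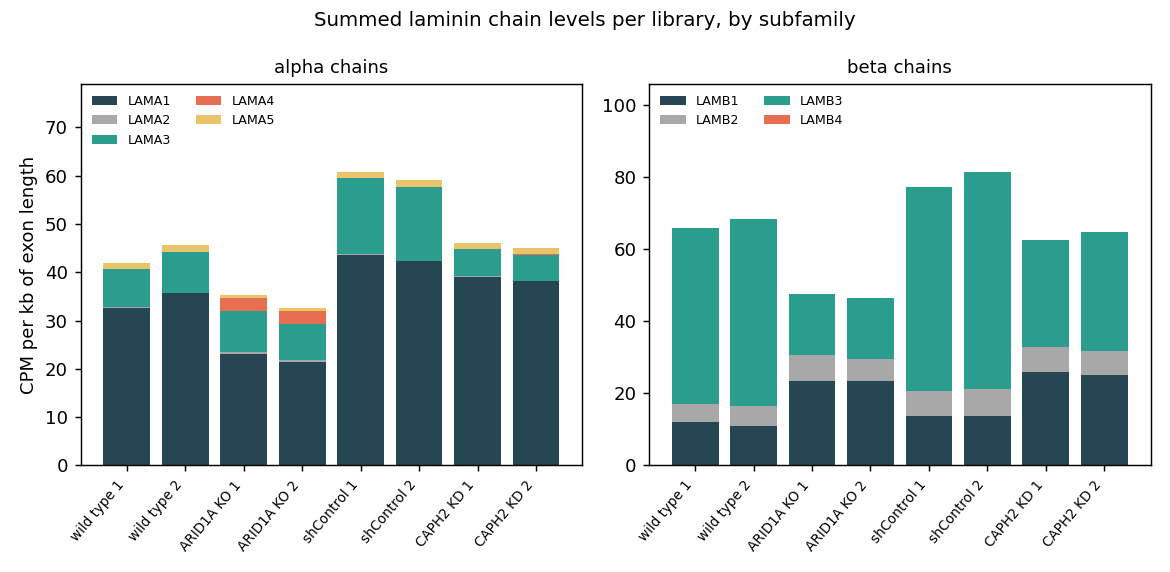
Stacked bars give the level of each laminin chain per kilobase of exon length (CPM per kb, TMM-scaled, y axis) in each of the 8 libraries (x axis), with 1 panel each for alpha and beta chains and a separate y scale per panel. LAMA4 is visible in the knockout libraries, and LAMB1 takes a larger part of the beta chains in knockout and knockdown than in either reference group.

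The make-up of the beta chains differed most between groups. Per kilobase, LAMB3 made up 74.2% and 76% of the beta chains in wild-type and 73.1% and 74.0% in shRNA control libraries. It made up 35.6% and 36.1% in knockout and 47.4% and 50.7% in knockdown libraries. The share of LAMB1 went the other way, from 18.0% and 15.9% in wild-type to 49.3% and 50.7% in knockout libraries, and from 17.7% and 16.9% in shRNA control to 41.3% and 38.9% in knockdown libraries. As a ratio within a library, LAMB3 stood at 4.12 and 4.79 times LAMB1 in wild-type libraries and at 0.721 and 0.713 times in knockout libraries. The ratio was 4.14 and 4.38 in shRNA control and 1.15 and 1.3 in knockdown libraries. Which of the 2 was higher in the knockdown depended on the gene length. With the longest transcript as length, LAMB3 made up 41.8% and 45.0% and LAMB1 47.2% and 44.7% of the beta chains there. These are shares of transcripts, and trimers were not measured.

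Among alpha chains, LAMA1 held the largest share in every library, from 65.5% in both knockout libraries to 84.8% in a knockdown library. LAMA4 held 7.36% and 7.87% in knockout libraries and at most 0.142% in any other. In the knockout, LAMA4 stood per kilobase at 4.45 and 4.43 times LAMA5, the alpha chain most widespread in adult epithelia.

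ARID1A-knockout cells were compared with wild-type cells. LAMA4 and LAMB1 were higher in the knockout, while LAMB3, LAMA5 and LAMA1 were lower. In the test over all 16657 genes, 3 members were counted as higher and 4 as lower (edgeR, Benjamini-Hochberg adjusted p under 0.05), beside 16.8% and 17.8% of all genes and 34.5% in either direction. Nothing is read from this count, since this contrast entered the choice of members. The median log2 fold change was −0.11 over the 8 members and 0.00 over all genes. In bulk RNA, fewer cells of a type and less RNA per cell cannot be told apart.

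LAMA4, the alpha chain of laminin-411, known from the basement membranes of vessels and muscle, was next to silent outside the knockout. It held 1 and 0 counts in the wild-type libraries (0.0413 and 0 CPM) and 1093 and 1134 counts in the knockout libraries (30.0 and 29.6 CPM). The shRNA control libraries held 1 and 9 counts (0.0310 and 0.251 CPM), and the knockdown libraries 24 and 18 (0.757 and 0.580 CPM). Both knockout libraries were far above the other 6. The ratio of knockout to wild type was 1540, with an exact 95% counting interval of 277 to 61000. The annotated antisense gene that overlaps LAMA4 held 0 counts in every library.

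Markers of other cell types were summed in the same libraries, and their part in the LAMA4 result was not tested. Of 5 matched endothelial markers, KDR and CLDN5 held no count in any library, and their sum was 0.157 to 0.219 CPM in knockout and 0.761 to 1.03 CPM in wild-type libraries. TEK, the single endothelial marker tested, was lower in the knockout. Of 6 fibroblast markers, COL1A2 and COL3A1 held no count in any library; the sum was 0.959 to 0.966 CPM in knockout and 0.435 to 0.455 CPM in wild-type libraries. LUM, the proteoglycan lumican, held 13 and 27 counts in knockout libraries and 0 in all others, and was 1 of 2 fibroblast markers tested. Smooth muscle and pericyte markers summed to 2.51 to 2.63 CPM in knockout and 1.59 to 1.94 CPM in wild-type libraries, and neither of the 2 tested was called. Their sum was 2.57 to 2.68 CPM in shRNA control and 2.87 to 3.19 CPM in knockdown libraries, where LAMA4 was next to silent. Of leukocyte markers, 3 were tested: PTPRC was higher (82 and 76 counts in knockout, 1 and 0 in wild-type libraries), CD14 was lower, and CD68 was not called. CD3E held no count in any library. The 6 leukocyte markers summed to 4.15 to 5.15 CPM in knockout and 1.3 to 2.98 CPM in wild-type libraries. That was the highest sum of these lists in the knockout and higher there than in wild type. The leukocyte sum was 2.79 to 3.85 CPM in shRNA control and 2.4 to 3.1 CPM in knockdown libraries. For fibroblast markers these sums were 0.391 to 0.464 and 0.284 to 0.29 CPM, and for endothelial markers 0.531 to 0.712 and 0.504 to 0.677 CPM.

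LAMB1, the beta chain of laminin-111, laminin-411 and laminin-511, was at 96.7 and 88.2 CPM in wild-type libraries. It was at 191.2 and 191.6 CPM in knockout libraries, 2.07-fold higher (log2 fold change 1.05, SE 0.06). The libraries of the 2 groups did not overlap, as for 64.5% of all genes tested. LAMB2, the beta chain known from the neuromuscular junction and the kidney filter, was at 34.6 and 38.3 CPM in wild-type and at 49.1 and 41.9 CPM in knockout libraries (0.32, SE 0.09). The groups did not overlap, but the 2 knockout libraries lay apart, and the LAMB2 call did not survive removal of library 1 of either group.

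LAMB3, the beta chain of laminin-332, had the largest fold among the members that were lower. It was at 229.4 and 243.5 CPM in wild-type libraries and at 79.4 and 78.7 CPM in knockout libraries, 2.99-fold lower (log2 fold change −1.58, SE 0.07). LAMA3, the alpha chain of the same trimer, did not follow. LAMA3 was at 116.2 and 122.4 CPM in wild-type and at 124.5 and 112.0 CPM in knockout libraries, which overlapped (−0.01, SE 0.06). Per kilobase, LAMA3 went from 0.162 and 0.161 times LAMB3 to 0.501 and 0.454 times.

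LAMA5, the alpha chain of laminin-511, was at 18.8 and 20.3 CPM in wild-type and at 8.31 and 8.25 CPM in knockout libraries (−1.24, SE 0.09). LAMA1, the alpha chain of laminin-111, known from embryonic epithelia, was at 518.1 and 565.9 CPM in wild-type and at 365.9 and 337.9 CPM in knockout libraries (−0.62, SE 0.06). Neither chain's libraries overlapped between the groups. LAMC1, the gamma chain of most laminins, was at 1244 CPM in both wild-type libraries and at 1141 and 1009 CPM in knockout libraries (−0.21, SE 0.06). The LAMC1 call was lost when only the 4 libraries of the comparison were fitted, and without knockout library 2.

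**Figure D2:**
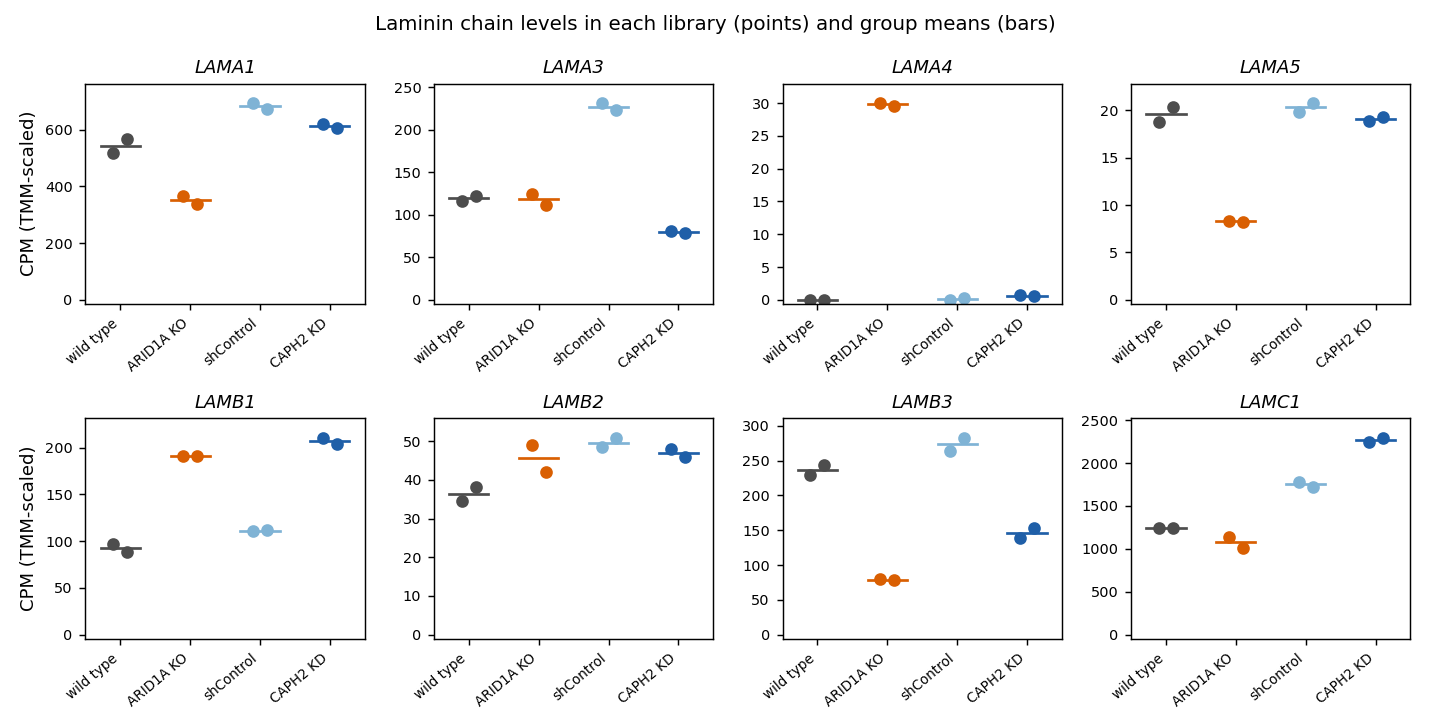
Points give the CPM (TMM-scaled, linear y axis, separate scale per panel) of each laminin chain in each library, and bars give the mean of the 2 libraries of a group (x axis). LAMA4 is near 0 in all groups but the knockout, at 30.0 and 29.6 CPM, and LAMA3 is highest in the shRNA control, at 231.1 and 222.7 CPM.

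CAPH2-knockdown cells were compared with shRNA control cells. LAMA3 and LAMB3, the alpha and beta chains of laminin-332, were lower in the knockdown, and LAMB1 and LAMC1 were higher. LAMA1, LAMA5 and LAMB2 differed little. In the test over all genes 3 members were counted as higher and 2 as lower (edgeR), beside 7.62% and 8.22% of all genes and 15.8% in either direction, and again nothing is read from this count. Libraries of the groups did not overlap for 59% of all genes. The median over the members was −0.08, beside 0.00 over all genes.

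LAMA3 differed most among the abundant chains. It was at 231.1 and 222.7 CPM in shRNA control and at 80.5 and 79.1 CPM in knockdown libraries, 2.84-fold lower (log2 fold change −1.51, SE 0.06). The knockdown libraries were also below both wild-type libraries. LAMB3 was at 264.3 and 282.3 CPM in shRNA control and at 139.0 and 153.7 CPM in knockdown libraries (−0.90, SE 0.06), again below both wild-type libraries. LAMB3 thus lay lower in both perturbed groups than in all 4 libraries with ARID1A and CAPH2 intact.

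LAMB1 was at 110.8 and 112.0 CPM in shRNA control and at 210.3 and 204.4 CPM in knockdown libraries (0.90, SE 0.06). All 4 libraries of knockout and knockdown cells thus lay between 191.2 and 210.3 CPM, above the 4 others at 88.2 to 112.0 CPM. LAMC1 was at 1783 and 1722 CPM in shRNA control and at 2244 and 2291 CPM in knockdown libraries (0.37, SE 0.06). The knockdown libraries held the highest LAMC1 levels and the knockout libraries the lowest.

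LAMA4 stood at 42 counts over the knockdown libraries and 10 over the control libraries, a ratio of 4.56 with an exact 95% counting interval of 2.25 to 10.2. Its call was lost without control library 1 or knockdown library 1, and when only the 4 libraries were fitted. Without control library 2, which held 9 of the 10 control counts, the fitted log2 value moved from 2.16 to 4.27. LAMA1 was at 692.3 and 670.9 CPM in shRNA control and at 620.8 and 604.4 CPM in knockdown libraries (−0.15, SE 0.06). LAMA5 went from 19.8 and 20.7 to 18.8 and 19.3 CPM (−0.09, SE 0.08), and LAMB2 from 48.5 and 50.8 to 48.1 and 45.95 CPM (−0.08, SE 0.08). None of these 3 was called over all 8 libraries. LAMA1 was called when only the 4 libraries were fitted.

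**Figure D3:**
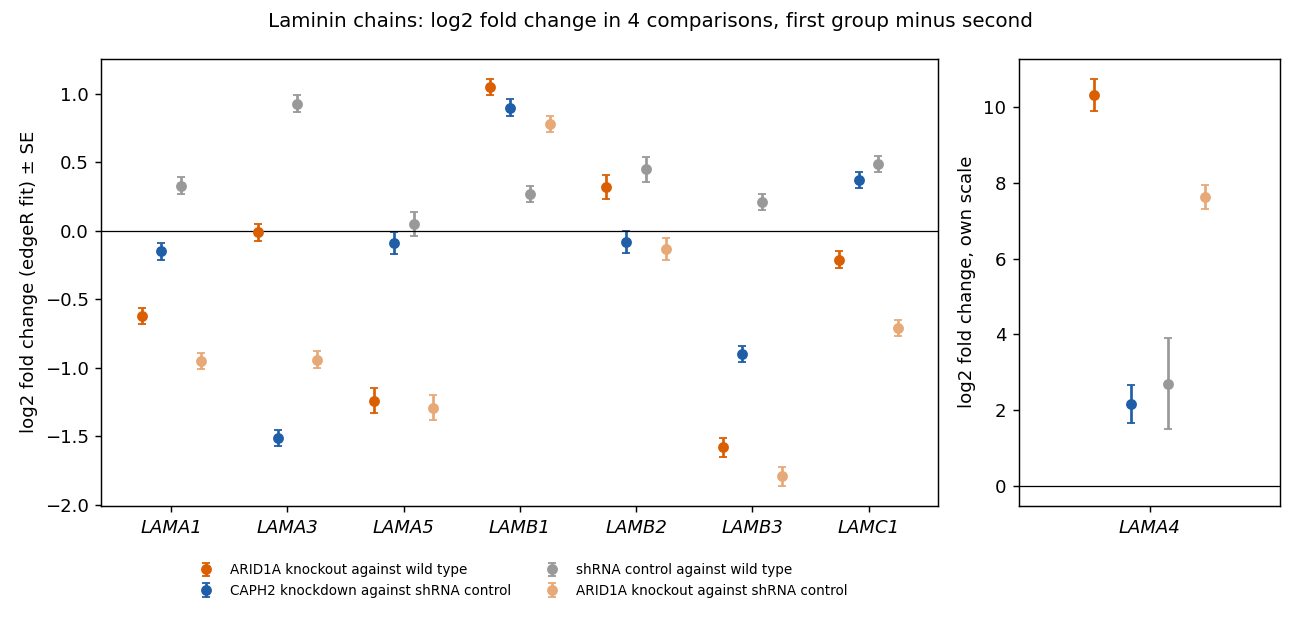
Points give the fitted log2 fold change (y axis, first group minus second) of each laminin chain (x axis) with its SE in 4 comparisons, and LAMA4 has a panel with its own scale. LAMA3 is at −0.01 when the knockout is set against wild type and at −0.94 when it is set against the shRNA control, whereas LAMB3 is at −1.58 and −1.79.

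The 2 reference groups, shRNA control and wild type, both have ARID1A and CAPH2 intact, and the control cells carry a hairpin. The labels do not say whether the groups also differ in culture or batch. Such differences cannot be told apart from the hairpin here. LAMA3, LAMC1, LAMB2 and LAMA1 were higher in the shRNA control, and LAMA5 differed little. In the test over all genes edgeR counted 6 members as higher and left LAMA4 and LAMA5 uncalled, beside 9.13% of all genes called higher, 10.1% lower and 19.2% in either direction. Libraries of the groups did not overlap for 57.5% of all genes. The median log2 fold change was 0.39 over the members and 0.00 over all genes. Nothing is read from this count either, since the levels in these libraries were known when the members were chosen. LAMA3 was 1.90-fold higher in the control libraries (log2 fold change 0.93, SE 0.06). LAMC1 was at 0.49 (SE 0.06), LAMB2 at 0.45 (SE 0.09) and LAMA1 at 0.33 (SE 0.06).

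LAMB1 was at 0.27 (SE 0.06), a call that removing either control library ended. LAMB3 was at 0.21 (SE 0.06), and its call was lost without wild-type library 1, without either control library and with only the 4 libraries. LAMA5 (0.05, SE 0.09) was not called, and neither was LAMA4, with 10 counts against 1 (ratio 7.61, counting interval 1.08 to 330). Without control library 1, LAMA4 was called (fitted log2 value 3.46).

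Because the references differ, the knockout was also set against the shRNA control, with the same knockout libraries. Here 2 members were counted as higher and 5 as lower, beside 20.9% of all genes in each direction and 41.8% in both. Libraries of the groups did not overlap for 72.6% of all genes. LAMA3 was then lower (log2 fold change −0.94, SE 0.06), where it had not differed from wild type. LAMC1 was at −0.71 (SE 0.06), LAMA1 at −0.95 (SE 0.06) and LAMB2 at −0.13 (SE 0.08). LAMB3 (−1.79, SE 0.07), LAMA5 (−1.29, SE 0.09), LAMB1 (0.78, SE 0.06) and LAMA4 (203-fold, counting interval 110 to 424) kept the direction they had against wild type. Against both references LAMA4 and LAMB1 were thus higher and LAMA1, LAMA5, LAMB3 and LAMC1 lower, while LAMA3 and LAMB2 depended on the reference.

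The genes around each member on its chromosome were set beside it, a comparison added after the data were seen. For each member, the median log2 fold change of the 40 nearest tested genes was taken. Against wild type this median was 0.27 around LAMA4 on chromosome 6, 0.18 around LAMB1 on chromosome 7, −0.14 around LAMA1 and −0.13 around LAMA3, both on chromosome 18. It lay between −0.06 and 0.10 around LAMA5, LAMB2, LAMB3 and LAMC1. After subtraction of the median, LAMB1 was at 0.87, LAMB3 at −1.64, LAMA5 at −1.19 and LAMA1 at −0.48. In the knockdown the medians lay between −0.11 and 0.06 except around LAMC1, where it was 0.21 and the chain stood 0.17 above it. Between the references the neighbours of LAMA1 (0.24) and LAMA3 (0.22) were higher as well, with 33 and 31 of the 40 above 0. LAMA1 stood 0.09 above that median and LAMA3 0.71. For the knockout against the shRNA control, the median was −0.55 around LAMA1 and −0.37 around LAMA3. Of the 40 neighbours, 3 and 10 were above 0. After its subtraction LAMA1 was at −0.41 and LAMA3 at −0.57. Around the other members this median lay between −0.06 and 0.31.

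The genes whose profile over the 8 libraries came closest to the most variable chains were sought among 12759 named genes with a mean of at least 1 CPM. Likeness was the root mean square distance between centred log2 CPM values. For LAMA4 they were SRGN, the proteoglycan serglycin (distance 1.14), PRSS35, a protease relative (1.18), and ALDH1A1, a retinaldehyde dehydrogenase (1.29). ALDH1A1 averaged 62.3 CPM in knockout and 0.739 to 1.44 CPM in the other groups. For LAMB3 they were GRB10, an adaptor of insulin receptor signalling (0.09), TRIB3, a pseudokinase (0.14), and CP, which encodes ceruloplasmin (0.14). GRB10 averaged 16.0 CPM in wild-type, 16.2 in shRNA control, 9.05 in knockdown and 4.71 in knockout cells.

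The genes that work with laminins were counted from lists of 62 partner genes, of which 49 were tested. In the knockout 14 rose and 20 fell, 69.4% of those tested, beside 34.5% of all genes. The median of their log2 fold changes was −0.27. In the knockdown 7 rose and 6 fell, 26.5% beside 15.8%, with a median of −0.04. Nothing is read from these shares or from those of the single lists below, since the lists were chosen with earlier results of these data known.

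Of the 3 listed chains that are not members, 2 were tested. LAMA2, the alpha chain of muscle laminin, rose from 1.28 and 1.09 to 4.96 and 4.65 CPM in the knockout (2.02, SE 0.24, edgeR adjusted p = 5.46e-05). LAMC3 stayed at or under 0.833 CPM in every library and was not called, and LAMB4 did not pass the filter.

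Laminin receptors had 3 rises and 7 falls among 13 tested in the knockout, 76.9% beside 34.5% of all genes. ITGA3, the alpha subunit of the main epithelial receptor for laminin-332 and laminin-511, fell from 535.7 and 599.8 to 355.5 and 344.3 CPM (−0.70, SE 0.06, edgeR adjusted p = 4.48e-06). ITGA2, the alpha subunit of a receptor for collagen and laminin, fell from 72.3 and 70.4 to 32.8 and 31.2 CPM (−1.16, SE 0.06, adjusted p = 8.47e-08). BCAM, a receptor for the LAMA5 chain, fell by 0.58 (SE 0.13, adjusted p = 0.00495), a call lost without knockout library 1. ITGB1, the beta subunit that ITGA3 and ITGA2 share, rose by 0.20 (SE 0.04, adjusted p = 0.00525), a call lost without knockout library 2. ITGA6 rose by 0.29 (SE 0.09, adjusted p = 0.0289), a call lost in 5 of 9 alternatives, DESeq2 among them (adjusted p = 0.0721). DAG1, or dystroglycan, was not called, at 28.7 and 36.4 CPM in wild-type and 29.7 and 24.3 CPM in knockout libraries. Some of these results depended on the reference. Set against the shRNA control, DAG1 was lower in the knockout (−0.55, SE 0.11, edgeR adjusted p = 0.00245). ITGB1 (0.09, SE 0.04) was not called there, and neither was ITGA6, with the other sign (−0.21, SE 0.09). ITGA3 (−0.46, SE 0.06) and BCAM (−1.05, SE 0.12) were lower there as well.

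In the knockdown the receptors had 3 rises and 2 falls, 38.5% of those tested beside 15.8% of all genes. That count of 5 was 3 without control library 2 or without knockdown library 1, and 8 when only the 4 libraries were fitted. ITGA2 rose from 26.9 and 28.7 to 92.8 and 92.7 CPM (1.74, SE 0.06, edgeR adjusted p = 1.37e-08), the other sign from the knockout against wild type. Its shRNA control level was itself below wild type (−1.36, SE 0.06, edgeR adjusted p = 3.09e-07). Set against the shRNA control, ITGA2 in the knockout was not lower (0.20, SE 0.06, edgeR adjusted p = 0.0238). That call was lost with DESeq2 (adjusted p = 0.0536), without knockout library 1 (edgeR adjusted p = 0.144) and without control library 1 (adjusted p = 0.189). SDC4, a syndecan proteoglycan, rose by 0.35 (SE 0.05, adjusted p = 0.00100). ITGA6 rose by 0.42 (SE 0.09, adjusted p = 0.00586), a call lost without control library 2 or knockdown library 1. ITGA3 fell by 0.27 (SE 0.06, adjusted p = 0.0114), a call lost without either control library or without knockdown library 1 (adjusted p 0.0797 to 0.1).

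Partners in the basement membrane network had 4 rises and 6 falls among 12 tested in the knockout, 83.3% beside 34.5% of all genes. COL4A1, a chain of the main type IV collagen, rose from 209.5 and 204.2 to 456.2 and 409.5 CPM (1.07, SE 0.06, edgeR adjusted p = 1.11e-07). PXDN, the peroxidase that crosslinks type IV collagen, fell from 14.6 and 15.2 to 0.795 and 0.601 CPM (−4.41, SE 0.16, adjusted p = 3.68e-09). HSPG2, or perlecan, was not called, at 5.33 and 7.46 CPM in wild-type and 5.84 and 6.61 CPM in knockout libraries. NID1 held at most 10 counts in any library and did not pass the filter. NID2, the more abundant nidogen here, named after its values were seen, rose from 42.1 and 53.5 to 146.0 and 137.1 CPM (1.56, SE 0.09, adjusted p = 1.71e-07).

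In the knockdown the network list had 4 rises and 2 falls, 50% of those tested beside 15.8% of all genes. HSPG2 rose from 6.28 and 5.78 to 51.7 and 51.4 CPM (3.10, SE 0.13, edgeR adjusted p = 3.84e-08), far above every other library. FBLN1, a fibulin, fell by 1.18 (SE 0.07, adjusted p = 5.91e-07). COL4A1 rose here as well (0.51, SE 0.06, adjusted p = 0.000107). COL4A1 shared with LAMB1 a higher level in both perturbed groups than in either reference, although shRNA control cells already exceeded wild type (0.54, SE 0.06, adjusted p = 0.000109).

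**Figure D4:**
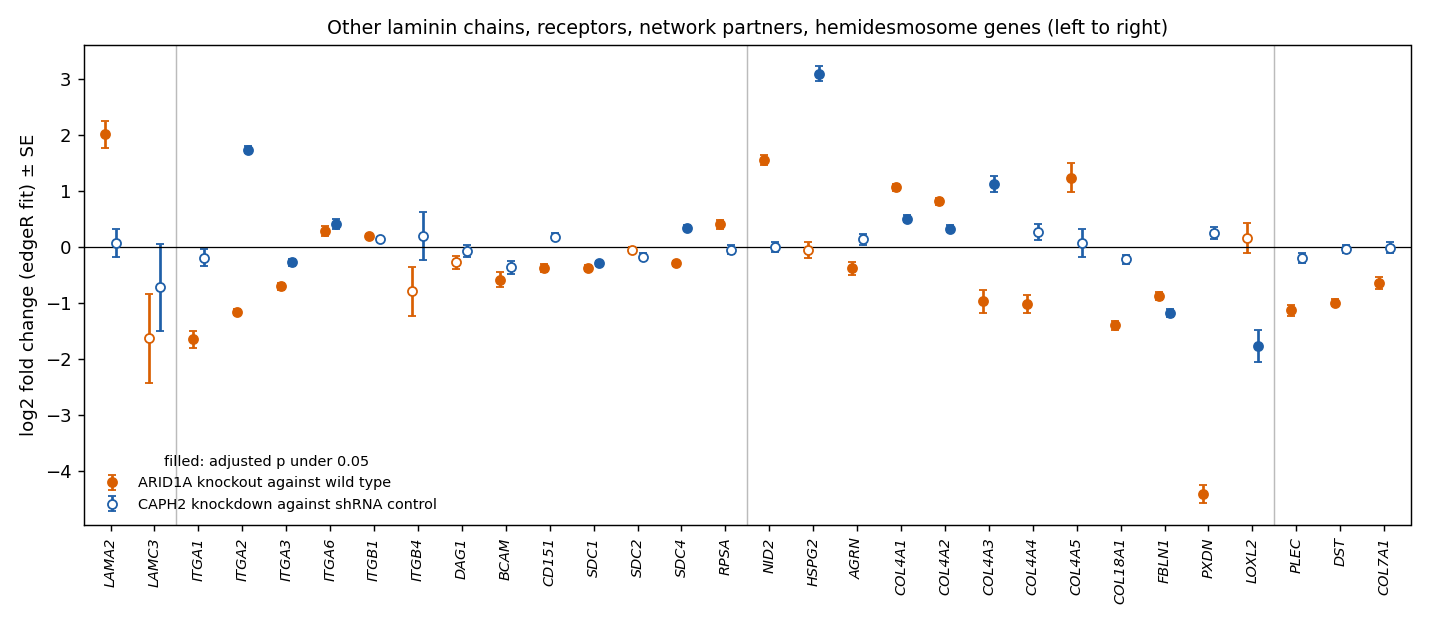
Points give the fitted log2 fold change with its SE (y axis) of genes that work with laminins (x axis) in the knockout against wild type and the knockdown against shRNA control, filled where the adjusted p is under 0.05. HSPG2 is at 3.10 in the knockdown, PXDN at −4.41 in the knockout, and ITGA2 has opposite signs, −1.16 and 1.74.

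Hemidesmosome and anchoring fibril genes form the attachment to which laminin-332 belongs. They had 1 rise and 4 falls among 6 tested in the knockout against wild type, and ITGA6 was the gene that rose. That was 83.3% of those tested beside 34.5% of all genes, and in the knockdown 16.7% beside 15.8%. For the knockout against the shRNA control the list had 0 rises and 4 falls, 66.7% beside 41.8% of all genes. ITGA6 was not called there (−0.21, SE 0.09). ITGA6, ITGB4 and CD151 stood in the receptor list as well, so the counts of these lists share genes. DST (−0.99, SE 0.07, edgeR adjusted p = 8.94e-07) and PLEC (−1.13, SE 0.10, adjusted p = 3.46e-06), which link the plaque to keratin, fell. ITGB4, the beta subunit that defines the hemidesmosome, was low in every library, at 0.698 to 1.67 CPM, and was not called. COL17A1, its transmembrane collagen, held at most 7 counts in any library. In the knockdown 1 of the 6 was called, ITGA6, and it rose; without control library 2 or knockdown library 1 the count was 0.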

How the data were processed

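The data are 8 total-RNA libraries of RMG1 cells in 4 groups of 2, grouped by the labels. Expected counts by Ensembl ID were deposited as a single table; the submitters' processing notes name Bowtie2, RSEM 1.2.12 and hg19. For the annotation release and strandedness, nothing is given in the sources used here, so antisense and overlapping genes are uncertain: DLD shares 70 exon bases with LAMB1 and ADRM1 shares 244 with LAMA5. Values were whole already, so rounding changed 0 values.

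Symbols came from a table of Ensembl IDs (51959 of 57736) and GENCODE 29 (342); 1 listed gene, PECAM1, had no ID here and is not reported. The reference is GRCh38, so exon lengths and gene order are from that build. In R 4.3.3 with edgeR 4.0.16, filterByExpr kept 16657 genes, TMM scaled the libraries, and a quasi-likelihood test without a block was fitted to all 8 libraries (4 residual degrees of freedom, common biological variation 7.74%), with Benjamini-Hochberg adjustment over all genes and a threshold of 0.05. It was checked on simulated data. Intervals cover counting error only. A test of the members between the reference groups was planned; it is given without p-values, since the levels were known when the members were chosen.

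Some genes of the lists are not reported here. Members and lists were chosen with earlier results of these data known. Named were all members and both targets. From each partner list the 2 genes with the lowest adjusted p per comparison were added, with ITGA3, ITGA6, ITGB1, ITGB4, DAG1, BCAM, NID1 and HSPG2 whatever their values, and the 3 genes most like LAMA4 and LAMB3. SDs of log2 CPM chose those 2 chains. The neighbour medians were added after seeing the data. Alternatives were size factors of median ratios, no filter, DESeq2 1.42.0, only the 4 libraries of a comparison, a replicate block, leaving out each library, and another gene length.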

Additional observations from a re-analysis of the deposited data

How the results depend on the processing

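Counts of single lists changed in places. Receptors called in the knockdown went from 5 to 8 with only the 4 libraries of the comparison. Netrins called in the knockout against shRNA control went from 2 to 1 with DESeq2. Other size factors, no low-count filter, DESeq2, a fit of 4 libraries and the replicate block left every all-gene count and every count over all partner lists together within 1.5 times its value. Leaving out a library did not: genes called in the knockdown fell from 2639 to 1360 or 1485 when control library 1 or 2 was removed, and to 1524 or 1499 when knockdown library 1 or 2 was. Genes called between shRNA control and wild type fell from 3205 to 1553 without control library 1 and 1599 without control library 2, and partner genes called there from 16 to 8 without control library 2. Over all 4 leave-one-out fits those counts were 1553 to 3410 and 8 to 16. The sign of LAMA5 between the references, which was not called, turned without wild-type library 1 (−0.01; leave-one-out range −0.01 to 0.11), and that of ARID1A without wild-type library 2 (0.15, edgeR adjusted p = 0.588; range −0.31 to 0.15). With the longest transcript as length, the LAMB3 share of beta chains moved from 75.1% to 70.9% in wild type, 35.8% to 30.8% in knockout and 49.0% to 43.4% in knockdown, and the LAMA4 share of alpha chains in knockout from 7.62% to 8.97%. The replicate number is only a name here: deviations of same-numbered libraries correlated between −0.0239 and 0.0296. The replicate block gave 34 partner genes in the knockout, as without it, and 14 in the knockdown, against 13. It changed no call of a member. Having 2 libraries a group limits all precision, and where a group holds few counts, as for LAMA4 in both reference groups, fitted values depend on the prior count.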

Other observations

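Genes that shape or cut laminins were counted as well. Among laminin-cleaving proteases 5 of 8 were tested. PLAU, the plasminogen activator urokinase, rose in the knockout from 19.5 and 19.99 to 86.4 and 87.9 CPM (log2 fold change 2.14, SE 0.07, edgeR adjusted p = 1.31e-09) and fell in the knockdown from 20.02 and 21.2 to 4.07 and 3.90 CPM (−2.37, SE 0.09, adjusted p = 1.41e-08). The difference between those effects was not tested. TLL2, a tolloid-like protease, fell in the knockout (−2.13, SE 0.26, adjusted p = 5.84e-05).

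Netrins carry the N-terminal domain of laminins, and 3 of 6 such genes were tested. NTN4, which binds laminin networks, rose in the knockout (0.75, SE 0.13, edgeR adjusted p = 0.00109). It fell in the knockdown (−0.53, SE 0.14, adjusted p = 0.0239), a call lost on leaving out any 1 of the 4 libraries. NTN1 held 0 counts in wild-type and 32 and 50 in knockout libraries, at least 18.9-fold higher if the wild-type group is set at the floor of 3 counts in all; it was called by edgeR (adjusted p = 0.00224) and not by DESeq2 (adjusted p = 0.283).

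All 11 enzymes that build the laminin-binding sugar of dystroglycan were tested. In the knockout 3 rose and 1 fell, 36.4% beside 34.5% of all genes. B4GAT1 rose by 0.79 (SE 0.15, edgeR adjusted p = 0.00147) and POMT2 fell by 0.76 (SE 0.10, adjusted p = 0.000159).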
